A study of Mus musculus with 18 samples.

Results

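The transcript levels of 9 genes for transcription-regulating kinases and their partners were examined across all 6 conditions of an RNA-Seq study of ED1SQ4 cells. The genes were chosen by name from the 55450 annotated genes in the deposited table, by the roles of their proteins. Earlier results of these data were known when they were chosen. They encode the kinase and cyclins of the positive transcription elongation factor P-TEFb (*Cdk9*, *Ccnt1*, *Ccnt2*), 2 proteins of the 7SK complex that holds P-TEFb inactive (*Hexim1*, *Larp7*), the kinase and cyclin of the general factor TFIIH (*Cdk7*, *Ccnh*), and the elongation kinase CDK12 with its cyclin (*Cdk12*, *Ccnk*). All 9 were found once in the table and passed the filter on low counts in every comparison.

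ED1SQ4 is a murine lung cancer cell line that originated from a tumor of a transgenic mouse engineered to express cyclin E in the lung, so every library carries that background and comes from 1 line. Cells received vehicle or 0.5 μM CYC065, an inhibitor of CDK2 and CDK9, for 72 hours, and both treatments were profiled as unsorted cells, as 2N (diploid) cells and as 4N (polyploid) cells. The 2N and 4N cells were separated by DNA content with a live DNA stain, a gate that diploid cells in G2 or mitosis share with polyploid cells. RNA was total RNA after removal of ribosomal RNA.

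The deposited table held 18 columns, 3 for each condition, which the labels call replicates and which carry the part numbers of 1 library. A chi-square statistic computed for these 3 columns, over genes whose counts were whole numbers, was 0.991 to 1.02 times its degrees of freedom. Over these genes, the columns thus agree within sampling noise. Over genes with fractional counts, the statistic was 4.35 to 7.6 times its degrees of freedom, and none of the 9 members was among those genes. The 3 columns of a condition were summed to 1 sample. Each condition therefore had 1 library of 54750168 to 62795451 counts, and no spread between cultures was measured. Levels are counts scaled to a common library size (CPM) with TMM normalization, differences are log2 ratios, and the ranges in parentheses after a ratio are 95% intervals that cover counting error only. No *P* value between conditions can be given. A ratio beyond 1 on the log2 scale in either direction, the fold that the study set for its own calls, is called past the fold below. Markers of the labelled tissue were also checked. The 5 epithelial markers summed to 0.436 to 1.28 CPM and the 4 lung adenocarcinoma lineage markers to 0 to 0.0855 CPM, with *Nkx2-1* at 0 counts in every library, while 3 mesenchymal markers summed to 6074 to 8559 CPM. Of these, *Vim* was lower after CYC065 in 2N, 4N and unsorted cells, while *Col1a1* and *Pdgfrb* were higher. The 3 leukocyte markers summed to 3.45 to 4.06 CPM with vehicle and to 10.9 to 23.8 CPM after CYC065. This was almost all *Cd68*, with the defining marker *Ptprc* at 0 counts in 5 of 6 libraries, and its part in the results below was not tested. The 2 endothelial markers summed to 0.506 to 1.86 CPM.

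RNA polymerase II pauses shortly after it starts a transcript, and P-TEFb, a dimer of CDK9 with cyclin T1 or T2, releases it by phosphorylating the polymerase tail and the pausing factors NELF and DSIF. Much of the P-TEFb in a cell is bound to the 7SK RNA, which LARP7 protects from decay and on which HEXIM1 blocks the kinase, and the *HEXIM1* transcript is widely used as a readout of drugs that disturb this balance. CDK7 with cyclin H phosphorylates the polymerase tail at initiation and activates other cyclin-dependent kinases. CDK12 with cyclin K acts later during elongation and is known for sustaining long DNA repair genes.

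CYC065-treated cells had higher levels of *Hexim1*, *Ccnt1* and *Ccnt2* than vehicle-treated cells in 2N, 4N and unsorted cells alike, and lower levels of *Larp7*. Levels are relative to the library, and RNA per cell was not measured. For 26.4% of 13537 genes, all 3 CYC065 libraries lay above all 3 vehicle libraries, and for 34.1% they lay below them. *Cdk9* itself, which encodes a target of the drug, moved by at most 0.20 on the log2 scale and in different directions in 2N and 4N cells. *Cdk7*, *Ccnh*, *Cdk12* and *Ccnk* stayed within 0.24 of 0 in each of these comparisons. Separately, *Hexim1* was lower in 4N than in 2N cells in both treatments.

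The level of *Hexim1*, the inhibitory protein of the 7SK complex, was 37.4 CPM in vehicle 2N, 25.3 in vehicle 4N and 33.3 in vehicle unsorted cells, against 75.1, 44.5 and 44.9 CPM in CYC065-treated 2N, 4N and unsorted cells. All 3 CYC065 libraries lay above all 3 vehicle libraries, and the 2N library after CYC065 stood apart from the other 5. The highest and lowest of the 6 levels differed 2.97-fold, the widest range among the 9 genes. These levels rest on 1484 to 4394 counts per library. The log2 ratio of CYC065 to vehicle was 1.01 (0.93 to 1.08) in 2N cells, 0.81 (0.72 to 0.90) in 4N cells and 0.43 (0.34 to 0.52) in unsorted cells. The difference in 2N cells was thus 2.01-fold. It only just passed the fold, its interval included 1, and without replicate 1 it was 1.00 and no longer past the fold.

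**Figure D1:**
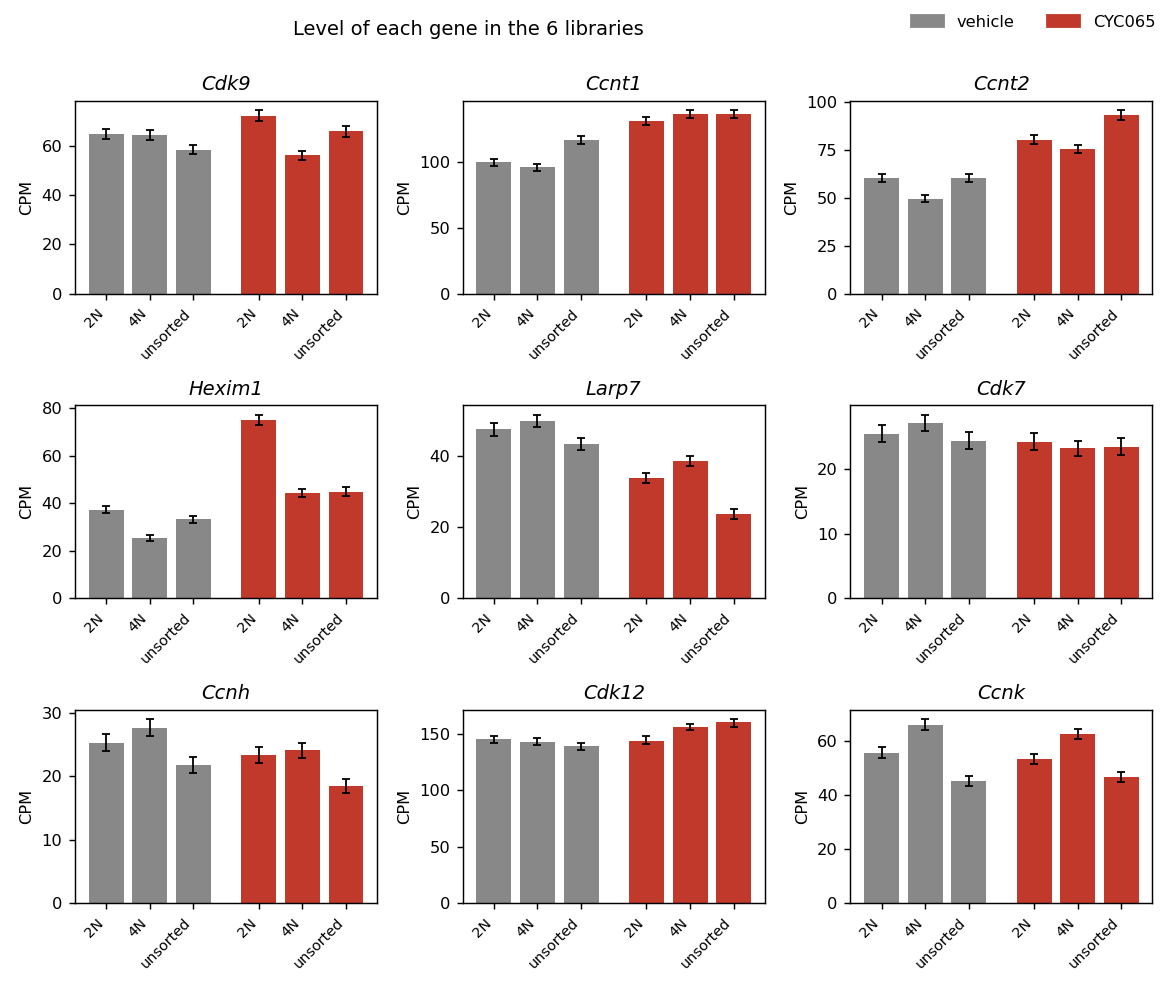
Level of each of the 9 genes in CPM (vertical axis of each panel, starting at 0) in the 3 vehicle libraries (gray) and the 3 CYC065 libraries (red), with 95% counting intervals as error bars and no replicate libraries. *Hexim1* was highest in 2N cells after CYC065 at 75.1 CPM, *Larp7* was lowest in unsorted cells after CYC065 at 23.8 CPM, and *Cdk7* lay between 23.3 and 27.2 CPM throughout.

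The level of *Larp7*, whose protein shields the 7SK RNA, was 47.6 CPM in vehicle 2N, 49.9 in vehicle 4N and 43.4 in vehicle unsorted cells, against 33.8, 38.7 and 23.8 CPM after CYC065 in the same order. The groups did not overlap, here with the CYC065 libraries below the vehicle libraries. The log2 ratio was -0.49 (-0.58 to -0.41) in 2N, -0.37 (-0.45 to -0.29) in 4N and -0.86 (-0.96 to -0.77) in unsorted cells, so *Larp7* was the member with the lowest ratio in each comparison of treatments. Of the 50-base words of its exons, 15.0% also occur in another gene, mainly in *Gm12666*. That gene was listed at 0 counts in all 6 libraries, and none of the 18 columns had a fractional *Larp7* count.

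Promoter sequences of the members with the clearest differences between treatments are shown to place these genes, *Hexim1* and *Larp7* because they differed in opposite directions and *Ccnt1* and *Ccnt2* because they differed in the same one. The sequences come from RefSeq (mm10), which held 8 of the 9 genes, with *Ccnh* as the exception. Each is the 250 bases before the RefSeq start read 5′ to 3′ on the gene's strand, cut for *Hexim1* to the 156 bases that precede its GENCODE start. GENCODE also annotates a start of *Ccnt1* 3187 bases further upstream, so the *Ccnt1* sequence lies inside the annotated gene. Capitals mark matches, on either strand, to a CCAAT box, a TATA element (TATAA), a GC box (GGGCGG), an E-box (CACGTG) or a cAMP response element (TGACGTCA). Where a CCAAT box and a GC box overlap, as near the end of the *Ccnt2* sequence, the capitals run together.
Hexim1, chr11:103116075-103116230, plus strand: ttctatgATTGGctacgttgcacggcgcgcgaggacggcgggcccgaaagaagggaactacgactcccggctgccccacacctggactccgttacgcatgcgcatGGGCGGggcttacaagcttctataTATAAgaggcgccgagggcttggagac
Larp7, chr3:127553350-127553599, minus strand: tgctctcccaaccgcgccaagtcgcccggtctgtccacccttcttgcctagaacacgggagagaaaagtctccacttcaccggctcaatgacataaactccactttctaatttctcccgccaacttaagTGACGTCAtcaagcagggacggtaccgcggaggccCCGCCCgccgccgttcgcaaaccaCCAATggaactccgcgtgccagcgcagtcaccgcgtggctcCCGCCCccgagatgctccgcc
Ccnt1, chr15:98567737-98567986, minus strand: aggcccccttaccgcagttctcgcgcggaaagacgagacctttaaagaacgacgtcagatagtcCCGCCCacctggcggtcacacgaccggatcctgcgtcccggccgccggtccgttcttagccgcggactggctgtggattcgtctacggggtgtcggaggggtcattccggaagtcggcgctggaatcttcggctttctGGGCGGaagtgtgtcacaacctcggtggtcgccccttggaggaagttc
Ccnt2, chr1:127773914-127774163, plus strand: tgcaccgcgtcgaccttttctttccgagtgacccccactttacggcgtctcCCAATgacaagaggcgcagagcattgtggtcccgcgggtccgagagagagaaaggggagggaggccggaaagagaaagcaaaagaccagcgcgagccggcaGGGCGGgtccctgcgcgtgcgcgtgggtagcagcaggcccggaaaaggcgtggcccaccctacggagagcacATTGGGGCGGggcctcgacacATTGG

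Of the 8 members with a promoter window, *Hexim1* was the one with a TATA element in it. The first base of this element lies 27 bases before the GENCODE start of the gene. Among all 32851 promoter windows of 300 bases, 24.9% hold this 5-letter word on either strand. *Larp7* had 2 matches to the cAMP response element, at -121 and 3 relative to its start, the latter past the stretch printed above, and 1.79% of all windows hold at least 1. *Ccnt2* had 3 GC boxes and 3 CCAAT boxes in its window, with the GC box at 29 past the printed stretch, and *Ccnt1* had 2 GC boxes and no CCAAT box. GC boxes occur in 35.7% and CCAAT boxes in 37.4% of all windows. An E-box, held by 7.15% of windows, was found in the window of *Cdk7* and of no other member. GENCODE starts lie 292, 246 and 159 bases upstream of the RefSeq starts of *Cdk9*, *Cdk12* and *Ccnk*. Their windows therefore lie wholly or partly inside the annotated gene, and motifs before the GENCODE starts can be missed. A match describes the letters and was not tested for binding of any factor.

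*Ccnt1* and *Ccnt2* encode cyclins T1 and T2, the alternative partners of CDK9. *Ccnt1* had 99.6 CPM in vehicle 2N, 95.6 in vehicle 4N and 116 in vehicle unsorted cells, and 131, 136 and 136 CPM after CYC065. *Ccnt2* had 60.3, 49.7 and 60.4 CPM with vehicle and 80.5, 75.5 and 93.4 CPM after CYC065. For both cyclins, every CYC065 library lay above every vehicle library. The log2 ratio of CYC065 to vehicle for *Ccnt1* was 0.40 (0.35 to 0.45) in 2N, 0.51 (0.46 to 0.56) in 4N and 0.23 (0.18 to 0.28) in unsorted cells. For *Ccnt2*, it was 0.42 (0.35 to 0.48), 0.60 (0.54 to 0.67) and 0.63 (0.57 to 0.69). Neither was past the fold in any comparison. An annotated antisense transcript, *9330020H09Rik*, overlaps *Ccnt1* with 116 to 195 counts per library, against 5597 to 9198 for *Ccnt1*. Whether counting used the strand is not given in the sources used here.

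*Cdk9*, the kinase of P-TEFb, had 64.6 CPM in vehicle 2N, 64.4 in vehicle 4N and 58.3 in vehicle unsorted cells. After CYC065, it had 72.1 CPM in 2N, 56.1 in 4N and 65.7 in unsorted cells, so the groups overlapped and the highest and lowest of the 6 levels were both from treated cells. The log2 ratio of CYC065 to vehicle was 0.16 (0.10 to 0.22) in 2N and 0.17 (0.10 to 0.24) in unsorted cells, but -0.20 (-0.27 to -0.13) in 4N cells. With scaling by library size alone, the value in 4N cells was -0.06 (-0.12 to 0.01), an interval that holds 0. In the order of levels, vehicle 2N and 4N cells could not be told apart by counting, nor could vehicle 2N from CYC065 unsorted cells or CYC065 4N from vehicle unsorted cells.

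**Figure D2:**
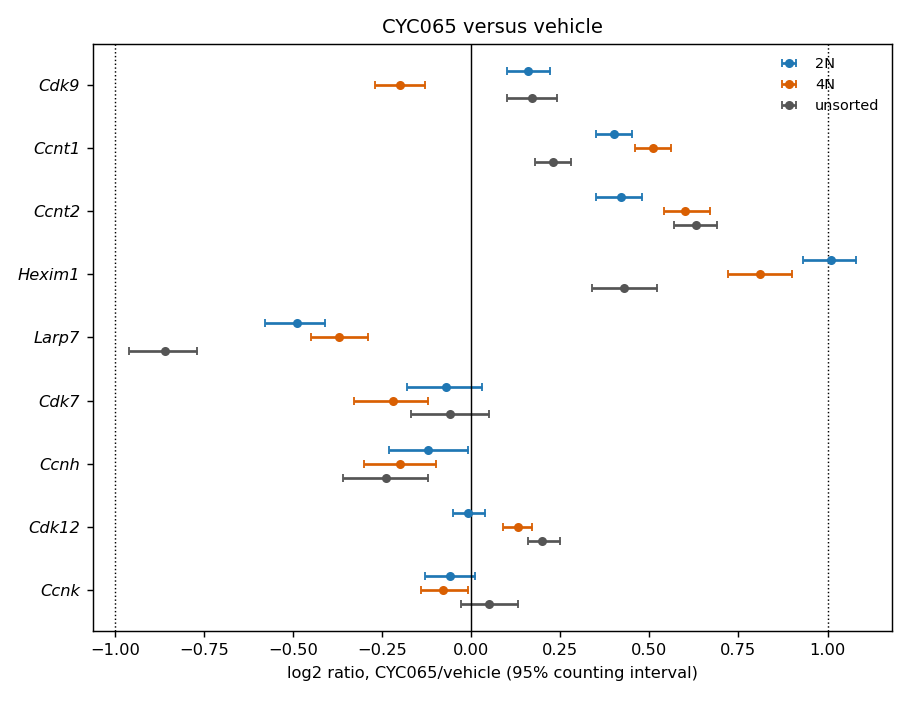
Log2 ratio of CYC065 to vehicle (horizontal axis) for each gene in 2N cells (blue), 4N cells (orange) and unsorted cells (gray), with 95% counting intervals as bars and dotted lines at the fold of 1. *Hexim1* in 2N cells, at 1.01, is the single point beyond a dotted line, and *Larp7* lies left of 0 in all 3 comparisons.

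The pairs of TFIIH and of CDK12 varied less. *Cdk7* had 25.5, 27.2 and 24.4 CPM in vehicle 2N, 4N and unsorted cells and 24.3, 23.3 and 23.5 CPM after CYC065. No 2 neighbors in the order of its 6 levels could be told apart by counting. Its ratio of CYC065 to vehicle was -0.22 (-0.33 to -0.12) in 4N cells, where the interval held 0 under scaling by library size alone, and its intervals in 2N and unsorted cells held 0. *Ccnh* had 25.3, 27.6 and 21.7 CPM with vehicle and 23.3, 24.1 and 18.4 CPM after CYC065, with ratios of -0.12 (-0.23 to -0.01), -0.20 (-0.30 to -0.10) and -0.24 (-0.36 to -0.12). With library size alone, its ratio was 0.02 (-0.09 to 0.13) in 2N and -0.06 (-0.16 to 0.04) in 4N cells, both intervals that hold 0. *Rasa1*, with 5871 to 7320 counts per library against 1015 to 1630 for *Ccnh*, overlaps the span of *Ccnh* on the opposite strand. Whether their exons overlap was not examined, and none of the 18 columns had a fractional *Ccnh* count. Any effect of *Rasa1* on the *Ccnh* counts was not tested.

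*Cdk12*, the most abundant of the 9 transcripts by CPM, had 145, 143 and 139 CPM in vehicle 2N, 4N and unsorted cells and 144, 156 and 160 CPM after CYC065, a 1.15-fold range. Its log2 ratio of CYC065 to vehicle was -0.01 (-0.05 to 0.04) in 2N, 0.13 (0.09 to 0.17) in 4N and 0.20 (0.16 to 0.25) in unsorted cells. *Ccnk*, encoding cyclin K, had 55.6, 66.0 and 45.1 CPM with vehicle and 53.4, 62.5 and 46.6 CPM after CYC065. The *Ccnk* ratios of -0.06 (-0.13 to 0.01), -0.08 (-0.14 to -0.01) and 0.05 (-0.03 to 0.13) were all within 0.08 of 0. Those in 2N and 4N cells turned to 0.08 and 0.06 with library size alone, and that of *Cdk12* in 2N cells to 0.13.

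Among the 9 genes, 1 was past the fold in 2N cells (*Hexim1*, higher), where 28.2% of all 14090 genes tested were past the fold and 14.9% were so in the higher direction. None was past it in 4N cells, where 25.6% of 14183 genes were, or in unsorted cells, where 25.7% of 14082 genes were. These counts over 9 genes are a description and were not tested. At a ratio beyond 0.5, the members numbered 1 in 2N cells (*Hexim1*), 3 in 4N cells (*Ccnt1*, *Ccnt2* and *Hexim1*, all higher) and 2 in unsorted cells (*Ccnt2* higher and *Larp7* lower). The shares of all genes beyond 0.5 were 56.4%, 54.0% and 53.4%. All 3 CYC065 libraries lay above all 3 vehicle libraries for 3 members (*Ccnt1*, *Ccnt2* and *Hexim1*), as they did for 26.4% of 13537 genes. They lay below them for 2 members (*Larp7* and, by 24.3 against 24.4 CPM at the nearest, *Cdk7*), as for 34.1% of genes. The median ratio over all genes tested was -0.07 in 2N, -0.03 in 4N and -0.07 in unsorted cells.

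Because the members form complexes, their levels were also set side by side per kilobase of annotated exon. In vehicle-treated cells, *Hexim1* reached 0.764 of the *Cdk9* level in 2N, 0.518 in 4N and 0.753 in unsorted cells. After CYC065, this ratio of levels was 1.37, 1.05 and 0.901. Each was above the vehicle value of the same cells. Per *Larp7*, *Hexim1* stood at 0.532, 0.343 and 0.520 with vehicle and at 1.5, 0.779 and 1.28 after CYC065, with no overlap between treatments. The ratios of *Hexim1* to *Cdk9* and to *Larp7* follow from the levels of these genes given above and add no further result. The ratio of *Ccnt1* to *Cdk9* per kilobase was 0.777, 0.747 and 0.999 with vehicle and 0.914, 1.22 and 1.04 after CYC065. *Ccnt1* exceeded *Ccnt2* in every library by 1.96 to 2.59 times per kilobase. The kinase and cyclin of TFIIH were close to each other, with 0.938 to 1.24 *Ccnh* per *Cdk7*, and *Ccnk* exceeded *Cdk12* by 1.12 to 1.78 times. These are ratios of RNA and depend on the exon lengths used, which pool all annotated transcripts of a gene.

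**Figure D3:**
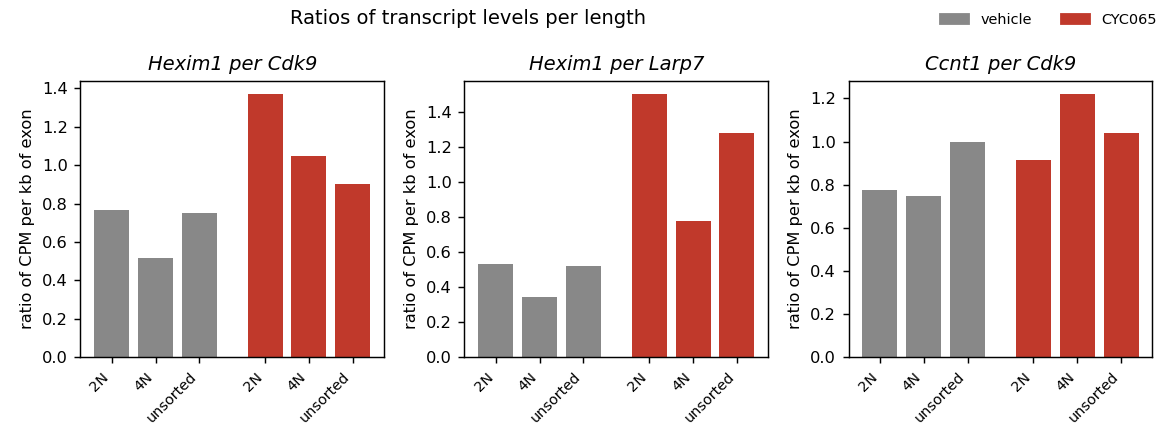
Ratio of transcript levels per kilobase of exon (vertical axes, starting at 0) for *Hexim1* per *Cdk9*, *Hexim1* per *Larp7* and *Ccnt1* per *Cdk9* in the 6 libraries, vehicle in gray and CYC065 in red, with no replicate libraries and no error bars. *Hexim1* per *Larp7* was 0.343 to 0.532 with vehicle and 0.779 to 1.5 after CYC065.

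The comparison of 4N with 2N cells asks how the same genes differed between the sorted populations within a treatment. *Hexim1* was lower in 4N cells, by a log2 ratio of -0.56 (-0.66 to -0.47) with vehicle and -0.76 (-0.82 to -0.69) with CYC065. It was the member with the lowest ratio in both treatments. *Ccnt2* was also lower in 4N cells, at -0.28 (-0.35 to -0.21) with vehicle and -0.09 (-0.15 to -0.04) with CYC065. *Ccnk* was higher, at 0.25 (0.18 to 0.32) and 0.23 (0.16 to 0.29). *Cdk9* had a ratio of 0.00 (-0.07 to 0.06) with vehicle and -0.36 (-0.43 to -0.30) with CYC065. *Larp7* had 0.07 (-0.01 to 0.15) and 0.19 (0.11 to 0.28). Of the other 4 genes, *Ccnt1*, *Cdk7*, *Ccnh* and *Cdk12*, none was beyond 0.13 in either direction in either treatment.

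None of the 9 genes was past the fold between 4N and 2N cells, against 2.72% of 13365 genes with vehicle and 3.63% of 14180 genes with CYC065. *Hexim1* was the 1 member lower by more than 0.5 in each treatment, as were 6.43% and 6.69% of all genes. The 4N/2N ratio differed between treatments by -0.36 (-0.45 to -0.27) for *Cdk9*, by -0.19 (-0.31 to -0.08) for *Hexim1* and by 0.19 (0.09 to 0.28) for *Ccnt2*. No member had a difference past the fold, as 7.31% of 14482 genes had. The median over all genes was 0.01 with vehicle, 0.02 with CYC065 and 0.02 for the difference.

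**Figure D4:**
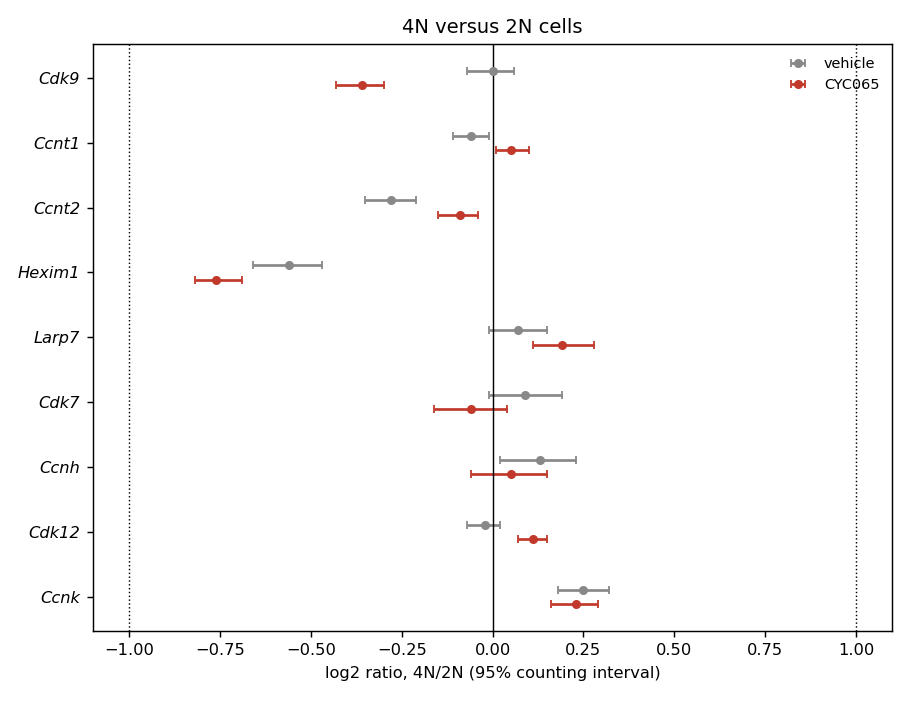
Log2 ratio of 4N to 2N cells (horizontal axis) for each gene with vehicle (gray) and CYC065 (red), with 95% counting intervals as bars and dotted lines at the fold of 1. *Hexim1* lies farthest left in both treatments, at -0.56 and -0.76, and the 2 values for *Cdk9*, 0.00 and -0.36, lie apart.

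Unsorted cells were not always between the sorted populations. With vehicle, *Ccnt1* was higher in the unsorted library than in both sorted ones, as were 28.2% of 13812 genes, with counting intervals that excluded 0. *Cdk9*, *Larp7*, *Ccnh* and *Ccnk* were lower than in both, as were 33.2% of genes. With CYC065, *Ccnt2* was above both sorted libraries, as were 25.0% of 14395 genes, and *Larp7*, *Ccnh* and *Ccnk* were below both, as were 26.6%. Unsorted and sorted libraries also differ in staining and sorting, and the part of these in the values was not tested.

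The genes whose profiles were nearest to those of *Cdk9* and *Hexim1* over the 6 libraries were found among 10291 genes with a mean of at least 5 CPM. Nearness was the root mean square difference of log2 CPM after centering each gene. For *Cdk9*, the nearest were *Abhd16a* (0.05), *Slc39a3* (0.06) and *Phf13* (0.07). For *Hexim1*, they were *Fzd8* (0.14), *Rtl5* (0.16) and *Efr3b* (0.17). This measure grows with the range of the gene itself, which was 2.97-fold for *Hexim1* and 1.29-fold for *Cdk9*, so the values of the 2 genes are not compared.

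Other genes of the transcription machinery were described in 7 lists of 51 genes, all of which were tested in each comparison of treatments. Past the fold, 1 was higher and 3 were lower in 2N cells, 2 were higher and 4 were lower in 4N cells, and 3 were higher and 6 were lower in unsorted cells. Past it in either direction were 28.2%, 25.6% and 25.7% of all genes tested. Between 4N and 2N cells, none of them was past the fold in either treatment, against 2.72% of all genes with vehicle and 3.63% with CYC065. Bulk RNA cannot tell fewer cells that express a gene from less RNA per cell.

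Of the remaining parts of the 7SK complex, *Hexim2*, a relative of *Hexim1*, was the one gene past the fold in all 3 comparisons of treatments. It had 1.58, 1.40 and 2.13 CPM in vehicle 2N, 4N and unsorted cells and 5.11, 4.65 and 5.85 CPM after CYC065, with log2 ratios of 1.69, 1.73 and 1.46. *Rn7sk*, the 7SK RNA, had 8384, 7450 and 6333 CPM with vehicle and 11021, 10161 and 11939 CPM after CYC065, for ratios of 0.39, 0.45 and 0.91. Its counts were fractional in all 18 columns, since reads were divided with similar sequences, so its level is uncertain. *Mepce*, which encodes the enzyme that caps 7SK, had ratios of 0.33, -0.01 and -0.08.

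The RNA polymerase II subunit genes were described as a list of 12. All 12 were lower after CYC065 in 2N, 4N and unsorted cells, with counting intervals below 0, except that under scaling by library size alone 11 of 12 were lower in 4N cells. Such an interval below 0 was found for 45.8%, 44.3% and 45.1% of all genes tested. Their median ratio was -0.75 in 2N, -0.62 in 4N and -0.80 in unsorted cells. *Polr2a*, the large subunit whose tail the kinases phosphorylate, had 498, 493 and 492 CPM in vehicle 2N, 4N and unsorted cells and 295, 336 and 280 CPM after CYC065. Past the fold in at least 1 comparison were *Polr2i*, at -1.01 in 4N cells, and *Polr2h* and *Polr2l*, at -1.14 and -1.11 in unsorted cells.

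Of the pausing factors, *Nelfe*, which encodes a subunit of NELF, was much lower after CYC065. It had 44.6, 43.1 and 35.6 CPM in vehicle 2N, 4N and unsorted cells and 9.76, 7.83 and 9.36 CPM after CYC065, with ratios of -2.19, -2.46 and -1.93. The other 5 genes of this list were not past the fold, and the list's median was -0.10, 0.00 and -0.11. Among 7 phosphatases or regulators of the polymerase tail, *Ssu72* had ratios of -1.31, -1.17 and -1.18 and *Ctdp1* of -1.47, -1.24 and -0.98. *Rpap2* was past the fold in unsorted cells, at -1.27. *Ctdsp2* was higher there, at 1.09, with fractional counts in all 18 columns.

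Among 9 other transcription kinases and cyclins, *Cdk19*, a Mediator kinase, was past the fold in 4N cells, at 1.02. *Ccnl2*, encoding cyclin L2, was past it in unsorted cells at 1.02, and *Cdk10* at -1.03. The 7 genes of the TFIIH core, partners of *Cdk7* and *Ccnh*, had median ratios of -0.35, -0.27 and -0.49 with none past the fold, and their largest ratio was that of *Gtf2h3*, at -0.89 in 4N cells. None of 7 genes of the PAF complex and SPT6 was past the fold, with *Leo1* farthest from 0 at -0.73 in 4N cells.

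**Figure D5:**
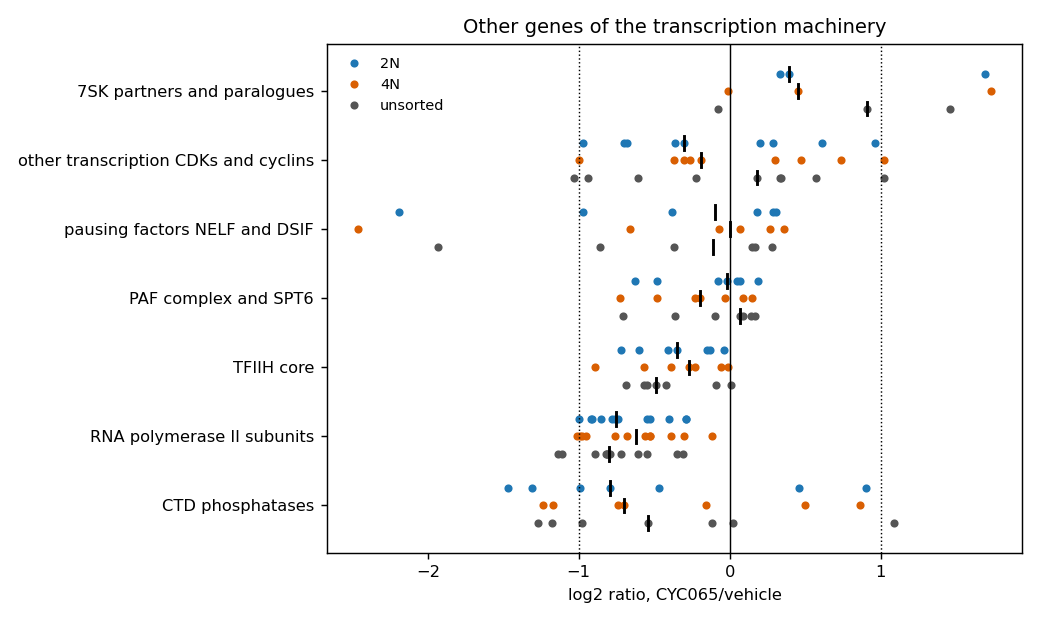
Log2 ratio of CYC065 to vehicle (horizontal axis) for each tested gene of the 7 lists of transcription machinery, in 2N cells (blue), 4N cells (orange) and unsorted cells (gray), with short black lines at list medians and dotted lines at the fold of 1. All 12 RNA polymerase II genes lie left of 0, and *Nelfe*, among the pausing factors, lies farthest left at -2.46 in 4N cells.

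Genes known to depend on these kinases were described as well. Of 6 DNA repair genes known to be sensitive to loss of CDK12, all 6 were past the fold in the lower direction in 2N and in unsorted cells and 4 were so in 4N cells. Of all genes tested, 13.3%, 13.9% and 11.4% were past it in that direction in 2N, unsorted and 4N cells. The log2 ratio of *Cdk12* itself was within 0.20 of 0. Between 4N and 2N cells, the median ratio of the 6 repair genes was 0.13 with vehicle and 0.69 with CYC065. With CYC065, the counting intervals of all 6 lay above 0, as did those of 21 of the 51 transcription machinery genes. The share of all genes with such an interval was not computed. Any part of CDK12 in the values of these genes was not tested. *Atm*, 1 of the 6, had ratios of CYC065 to vehicle of -2.19, -1.73 and -2.01 in 2N, 4N and unsorted cells. Of 8 short-lived transcripts known to be sensitive to P-TEFb, 3 were past the fold in the higher direction in 2N cells, 1 in 4N cells and 3 in unsorted cells, and none in the lower direction. The share of all genes past the fold in the higher direction was 14.9%, 14.2% and 11.7%. *Fos* was the highest, at 2.49, 2.42 and 3.86, while *Mcl1* had -0.20, -0.39 and -0.01. The *Fos* ratio in unsorted cells rests on 2.13 CPM with vehicle, against 18.5 and 9.42 CPM in vehicle 2N and 4N cells. The median 4N/2N ratio of the 8 was -0.37 with vehicle and -0.60 with CYC065. *Myc* and *Klf6* were higher after CYC065 in 2N and 4N cells but lower in unsorted cells, at -0.26 and -0.33. Of *Cdk2* and 3 cyclin genes for its partners, 2 were past the fold in the lower direction in 2N cells and 3 in 4N and in unsorted cells, against the same 13.3%, 11.4% and 13.9% of all genes. *Ccna2*, encoding cyclin A2, had ratios of -1.53, -1.02 and -1.90. *Ccne2*, encoding cyclin E2, had -1.20, -1.35 and -1.64, and *Ccne1*, encoding cyclin E1, had -0.95, -1.14 and -1.30. *Cdk2*, the other target of CYC065, was not among them, at -0.96, -0.53 and -0.64, values below those of *Cdk9* in each comparison.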

How the data were processed

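RNA-Seq was analyzed in 6 conditions. Per the submitters' processing notes, reads were demultiplexed with bcl2fastq 2.17, trimmed with Cutadapt 1.18, aligned to mm10 with STAR 2.7.0f and counted for GENCODE M21 genes with RSEM 1.3.1. The deposited values are RSEM expected counts, which the authors neither normalized nor filtered. The 3 columns of a condition were summed, and the sums were rounded. Libraries were scaled together by TMM (edgeR 4.0.16, R 4.3.3). Log2 ratios used a prior count of 0.125 and exact binomial intervals (SciPy 1.17.1), and genes with at least 30 summed counts in a compared library entered the comparison. The interval of a difference of ratios used a normal approximation. Scripts were tested on simulated data. The design foresaw that columns might form 1 library, so edgeR's quasi-likelihood test and DESeq2 1.42.0 were run on columns as alternatives only, with other scalings, filters, prior counts and call rules, and without each replicate number.

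The members and gene lists were chosen with earlier results of these data known. All members were named. From each list, examples among the genes past the fold, or else the gene farthest from 0 with at least 100 counts, were named, and 1 list is not reported here. *Polr2a*, *Rn7sk*, *Mepce*, *Mcl1* and *Cdk2* were added for their role after their values were seen. *Myc* and *Klf6* also fall outside this rule, and were named with ratios whose sign differed between sorted and unsorted cells.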

Additional observations from a re-analysis of the deposited data

Results flagged for a closer look

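*Cdk9* was picked out because its log2 ratio of CYC065 to vehicle had opposite signs in the sorted populations, 0.16 in 2N and 0.17 in unsorted cells but -0.20 in 4N cells. *Ccnt1* was picked out because its 4N/2N ratio was -0.06 with vehicle and 0.05 with CYC065. With 1 library per condition, these differences between groups were not tested against spread between cultures. With DESeq2 size factors, both *Ccnt1* intervals held 0, at -0.08 to 0.02 with vehicle and -0.01 to 0.08 with CYC065. With library size alone, the interval with vehicle held 0, at -0.10 to 0.00. That with CYC065 lay above 0, at 0.02 to 0.11. Scaling by library size alone shifted the median of the 4N/2N ratios by 0.01.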

How the results depend on the processing

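Each condition rests on 1 library, so intervals cover counting error only, and depth limits mainly genes with few counts. Scaling by library size alone shifted the median ratio of CYC065 to vehicle by 0.14 in 2N and 4N cells and by -0.05 in unsorted cells. Genes past the fold were then 62.9% higher in place of 52.8% in 2N cells and 66.5% in place of 55.4% in 4N cells. No member moved by more than 0.15 under any alternative, and the ratios of CYC065 to vehicle for *Hexim1*, *Ccnt1*, *Ccnt2*, *Larp7* and *Cdk9* kept their sign under every alternative tried. The ratios of CYC065 to vehicle that changed sign lay within 0.12 of 0. Counts in the gene lists also depended on scaling. Of the 6 repair genes, 5 were past the fold in the lower direction in 2N cells with library size alone. In 4N cells, 5 were so with DESeq2 size factors. Of *Cdk2* and its cyclin genes, 1 was so in 4N cells with library size alone.

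The count of members past the fold in 2N cells was 0 to 1 when 1 replicate number was left out, with 0 without replicate 1, and 0 where the whole interval had to lie beyond 1. With a ratio beyond 0.5, the members numbered 3 in 4N cells, 2 in unsorted cells and 1 between 4N and 2N cells in each treatment. In the order 2N, 4N and unsorted cells, 4N against 2N cells with vehicle, the same with CYC065, and the difference between treatments, genes past the fold numbered 11768, 11126, 10474, 5629, 7609 and 10232 without a filter on low counts and 7944, 7656, 7524, 1519, 1778 and 2860 with a ratio beyond 0.5. For the last 3 of these comparisons, a minimum of 100 counts left 120, 216 and 313 genes, and an interval wholly beyond 1 left 70, 162 and 119. For the difference between treatments, DESeq2 called 345 genes and edgeR's quasi-likelihood test 546, in place of 1058. Both tests also require an adjusted *P* value below 0.05.

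Deviations of columns with the same replicate number had correlations of -0.38 to 0.51 over 45 pairs, with no common sign. This range alone cannot settle whether the numbers pair the samples, since columns with different numbers were not set beside it. With the replicate number as a block, edgeR called 3872, 3607, 3524, 307, 464 and 528 genes, against 3869, 3604, 3519, 308, 457 and 546 without the block.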
